A study of Mus musculus with 10 samples.

Results

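The 35 genes described here belong to the interferon response and were taken by name from the deposited gene tables, in which all 35 were found among 47643 genes. They were measured by RNA-seq in mesenchymal cells isolated by flow cytometry from Peyer's patches, lymphoid organs of the small intestinal wall, of C57BL/6 mice described as wild type. Every library came from cells that carried podoplanin and lacked surface CD45, EpCAM1, TER119 and CD31, which mark leukocytes, epithelium, erythroid cells and endothelium in that order. The 5 MRC libraries (MRC1 to MRC5) hold cells with the adhesion molecule MAdCAM1 on their surface, and the 5 MCi libraries (MCi1 to MCi5) hold cells without it. No treatment, infection or allele is named for either population, and the labels give neither the age of the mice nor whether libraries came from separate or pooled animals, so p-values here reflect the variation among these samples alone, and that variation may be technical.

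Type I and type III interferons bind receptors at the cell surface that activate the kinases JAK1 and TYK2, which phosphorylate STAT proteins. STAT2 and IRF9 belong to a complex called ISGF3 that binds interferon-stimulated response elements in promoters and switches on antiviral genes. In the gut the pathway restricts viruses and responds to signals from the microbiota, and many of its genes are also transcribed at a low tonic level without infection.

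Depth was 3941032 to 8738115 total exon reads per library. A count of 3 reads, taken as the floor of detection, corresponded to 0.309 CPM (in MCi5) to 0.772 CPM (in MRC2). CPM are reads scaled to the size of the library. MRC4, MRC5, MCi4 and MCi5 were deeper (6142562 reads or more) than the other 6 libraries (4761017 or fewer). MRC4 and MRC5 stood apart in other ways: 10 epithelial marker genes together made up 24514 and 30203 CPM there, against 11.2 to 3384 CPM in MRC1 to MRC3 and 14.3 to 1108 CPM in MCi libraries. Mitochondrial genes took 6.66% and 4.28% of their exon reads, against 0.706% to 1.58% in the other 8 libraries. The summed fibroblast markers were lowest in these same libraries (26688 and 26654 CPM) and reached 45081 CPM or more elsewhere, so stromal transcripts were present in every library. Leukocyte markers summed to 13.4 to 102 CPM in MRC and 8.95 to 23.5 CPM in MCi libraries. Dendritic cell markers summed to 14.01 to 20.8 CPM in MRC and 7.93 to 22.03 CPM in MCi libraries. Within that list, Zbtb46 was at 7.93 to 20.4 CPM, Ccr9 at 0 to 2.82 CPM and Siglech at 0 to 0.257 CPM. Siglech is a marker of the plasmacytoid dendritic cells that are potent interferon producers. In such bulk libraries, fewer cells of a type and less RNA per cell cannot be told apart.

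The promoters of 4 members that hold matches to an interferon response element are shown because these genes were low together in MCi1. That of Irf8, a member that was not low there, is shown beside them, although only 40.1% of the exon reads of Irf8 were unique to it. The genes were picked for both traits, so these promoters do not show whether matches go with low values. Each is the stretch of 160 bases just before the annotated start in RefSeq (GRCm38.p6), printed on the strand of its gene. Capitals mark matches to GAAA followed by any 2 bases and another GAAA, the core of an interferon-stimulated response element, read on either strand, with overlapping matches run together. The regions are chr4:156200819-156200978 on the minus strand for Isg15, chr19:34640729-34640888 on the plus strand for Ifit1, chr19:34583369-34583528 on the plus strand for Ifit3, chr8:71537473-71537632 on the minus strand for Bst2 and chr8:120736198-120736357 on the plus strand for Irf8.
Isg15: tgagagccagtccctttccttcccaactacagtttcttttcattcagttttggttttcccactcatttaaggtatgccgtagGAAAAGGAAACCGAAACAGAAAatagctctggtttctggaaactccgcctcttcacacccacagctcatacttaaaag
Ifit1: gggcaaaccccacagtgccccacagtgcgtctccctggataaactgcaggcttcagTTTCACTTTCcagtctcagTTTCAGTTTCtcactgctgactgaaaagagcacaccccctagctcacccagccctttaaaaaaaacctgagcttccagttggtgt
Ifit3: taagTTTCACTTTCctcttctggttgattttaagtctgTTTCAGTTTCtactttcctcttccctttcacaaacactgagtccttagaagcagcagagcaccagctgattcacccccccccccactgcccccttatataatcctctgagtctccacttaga
Bst2: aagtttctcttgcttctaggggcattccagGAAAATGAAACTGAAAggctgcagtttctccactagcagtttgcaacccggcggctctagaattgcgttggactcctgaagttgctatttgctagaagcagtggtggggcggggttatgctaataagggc
Irf8: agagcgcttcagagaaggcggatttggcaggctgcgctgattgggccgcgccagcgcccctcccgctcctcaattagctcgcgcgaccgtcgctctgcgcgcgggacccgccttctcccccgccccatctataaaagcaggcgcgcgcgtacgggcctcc

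Isg15 had 3 matches that overlap, Ifit1, Ifit3 and Bst2 had 2 each, and Irf8 had 0. Over windows of 300 bases (250 before and 50 after the start), 26 of the 35 members could be matched to a RefSeq promoter. Of these, 11 held the motif (42.3%), against 1079 of 27025 genes (3.99%). The 11 were Isg15, Ifit1, Ifit3, Ifih1, Irf2, Stat2, Oas1a, Oas3, Rsad2, Bst2 and Eif2ak2. A match describes the letters of a window and not a bound site.

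Levels per length of transcript differed widely between members. Bst2, which encodes tetherin, a protein that holds budding viruses at the cell surface, was the highest of the 35 in both populations, at 111 ± 50.5 RPKM in MRC and 192 ± 48.4 RPKM in MCi (SD, n = 5 each). Ifit3, an antiviral adaptor that works with the RNA-binding protein IFIT1, came next at 57.9 ± 54.1 RPKM in MRC and 86.9 ± 43.0 RPKM in MCi. Its mean ± SD overlapped that of Bst2 in MRC but not in MCi. Mx1 and Oas3 were the lowest in both, with Mx1 at 0.778 ± 0.435 RPKM in MRC and 0.350 ± 0.232 RPKM in MCi, and Oas3 at 0.762 ± 0.692 RPKM in MRC and 0.229 ± 0.162 RPKM in MCi. These 2 genes had too few reads to be tested (74 in MRC and 37 in MCi for Mx1, 125 in MRC and 34 in MCi for Oas3), which left 33 members.

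None of the 33 members passed the test between MRC and MCi. The comparison asks whether cells with and without MAdCAM1 differ in these genes, and edgeR's quasi-likelihood test with Benjamini-Hochberg adjustment over 12127 genes called 0 of the 33 at an adjusted p of 0.05, against 0.437% of all genes. An unadjusted p under 0.05 was seen in 2 members, Oasl1 and Irf7, against 16.7% of all genes, and DESeq2 called 0 members and 7.02% of all genes. Of the log2 fold changes, MRC minus MCi, 17 were above 0 and 16 below, with a median of 0.00 for the members and 0.01 for all genes tested, and 32 of the 33 lay within 1 of zero. No member had every MRC library above or below every MCi library, which held for 3.79% of all genes. The precision limits what this shows: the 95% interval of the log2 fold change stayed inside −1 to 1 for 15 members and reached beyond a 2-fold difference for the other 18.

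**Figure D1:**
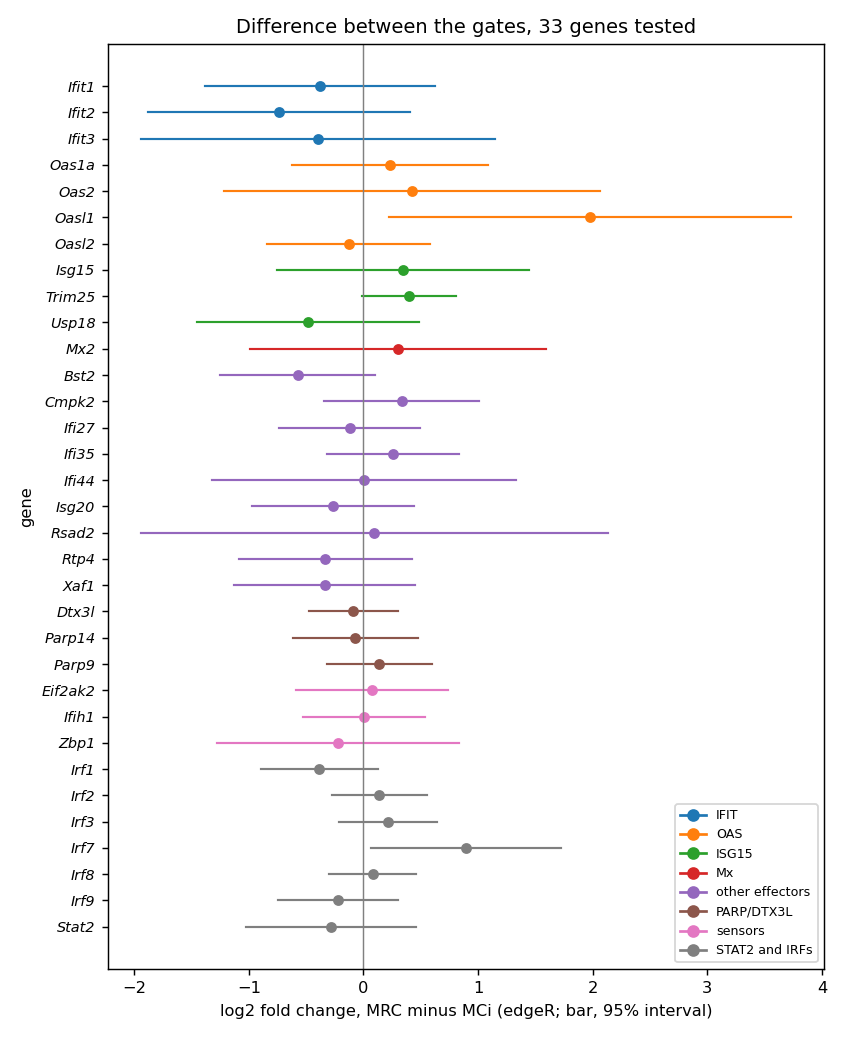
Log2 fold change, MRC minus MCi, of the 33 genes tested, in rows coloured by role; points are edgeR estimates and bars their 95% intervals. The estimates fall on both sides of 0 and 31 of the 33 intervals hold 0, the exceptions being Oasl1 and Irf7.

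Among the signal transducers and interferon regulatory factors, Irf7, the factor that amplifies type I interferon production, was at 37.3, 87.0, 147, 129 and 134 CPM in MRC1 to MRC5, and at 30.0, 81.1, 77.8, 51.9 and 46.9 CPM in MCi1 to MCi5. Every MRC library but MRC1 was above every MCi library, MRC2 by a small margin, and MRC1 was above MCi1 alone. Its log2 fold change was 0.89 ± 0.38 (SE; edgeR unadjusted p = 0.0366, adjusted p = 0.265). Irf1, a factor induced by interferon gamma and by inflammatory signals, was at 159, 152, 166, 164 and 293 CPM in MRC1 to MRC5, and at 212, 339, 204, 225 and 242 CPM in MCi1 to MCi5. All MRC libraries but MRC5 were below all MCi libraries, and the log2 fold change was −0.39 ± 0.23 (edgeR adjusted p = 0.437). Stat2 and Irf9, which encode parts of ISGF3, and Irf2, Irf3 and Irf8 had log2 fold changes between −0.28 and 0.22 (edgeR adjusted p of 0.633 or more). Only 40.1% of the exon reads of Irf8 were unique to it, so its level is uncertain.

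Of the 3 sensors of foreign nucleic acid, 0 passed. Ifih1, which encodes the double-stranded RNA sensor MDA5, had a mean of 42.3 ± 14.3 CPM in MRC, against 42.2 ± 7.27 CPM in MCi (SD, n = 5 each), with a log2 fold change of 0.00 and a 95% interval of −0.53 to 0.53. Eif2ak2, which encodes the kinase PKR that halts translation on double-stranded RNA, had a mean of 23.6 ± 9.51 CPM in MRC, against 22.4 ± 6.28 CPM in MCi (interval −0.59 to 0.74). For Zbp1, a sensor of Z-form nucleic acid, the interval was wider, −1.28 to 0.83, around a log2 fold change of −0.22.

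The OAS family makes oligoadenylates that activate the antiviral nuclease RNase L, and the related protein OASL1 lacks that activity. Oasl1, which in mouse restrains translation of Irf7, was at 4.27, 5.41, 21.1, 67.6 and 53.1 CPM in MRC1 to MRC5, and at 2.02, 10.4, 3.81, 12.1 and 9.89 CPM in MCi1 to MCi5. MRC3, MRC4 and MRC5 were above every MCi library, whereas MRC1 and MRC2 were among the MCi values. Its log2 fold change of 1.98 ± 0.79 was the largest among the members (95% interval 0.22 to 3.73; edgeR unadjusted p = 0.0309, adjusted p = 0.256), and without MRC4 and MRC5 it was 0.42 ± 0.67 (edgeR adjusted p = 0.861). In that fit 0 of 34 members tested were called, against 1.03% of all genes. Oas3, not tested, was at 0, 0.257, 8.47, 6.89 and 8.10 CPM in MRC1 to MRC5 and at 0.448 to 2.42 CPM in MCi, so its 3 higher libraries were the same as those of Oasl1. The fitted differences of Oas1a, Oas2 and Oasl2 were 0.23, 0.43 and −0.13 on the log2 scale (edgeR adjusted p of 0.821, 0.833 and 0.890).

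The IFIT proteins bind foreign RNA and block its translation, and their genes all had fitted values below 0 without passing the test. Ifit2 was at 34.2, 45.6, 50.6, 5.32 and 12.6 CPM in MRC1 to MRC5, and at 41.0, 33.3, 72.1, 45.7 and 54.5 CPM in MCi1 to MCi5. MRC4 and MRC5 were below every other library and the rest overlapped. Its log2 fold change of −0.74 ± 0.52 was the lowest among the members (edgeR adjusted p = 0.520). Ifit3 was at 66.2, 248, 198, 18.6 and 32.98 CPM in MRC1 to MRC5, and at 47.7, 175, 256, 136 and 129 CPM in MCi1 to MCi5, with the lowest values again in MRC4 and MRC5. Its log2 fold change was −0.40 ± 0.69 (edgeR adjusted p = 0.832), that of Ifit1 was −0.38 ± 0.45 (edgeR adjusted p = 0.733), and 77.0% of the exon reads of Ifit3 were unique to it.

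ISG15 is a ubiquitin-like modifier, USP18 removes it and also restrains the interferon receptor, and TRIM25 is a ubiquitin ligase that acts on the sensor RIG-I. Isg15 was at 19.0, 47.6, 53.9, 26.0 and 20.7 CPM in MRC1 to MRC5, and at 11.4, 41.0, 52.3, 14.5 and 12.7 CPM in MCi1 to MCi5. In each population libraries 2 and 3 were highest, and the populations overlapped throughout (log2 fold change 0.35 ± 0.50, edgeR adjusted p = 0.788). Trim25 was at 46.1, 60.8, 61.7, 68.5 and 42.7 CPM in MRC1 to MRC5, and at 40.5, 46.9, 52.8, 38.3 and 33.9 CPM in MCi1 to MCi5. MRC2, MRC3 and MRC4 were above all MCi libraries and MRC1 and MRC5 were within them (log2 fold change 0.40 ± 0.19, 95% interval −0.01 to 0.81, edgeR adjusted p = 0.316). Usp18 was at −0.48 ± 0.44 on the log2 scale (edgeR adjusted p = 0.640).

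Among the other effectors, Bst2 was at 98.3, 147, 122, 51.8 and 63.4 CPM in MRC1 to MRC5, and at 80.6, 161, 170, 162 and 145 CPM in MCi1 to MCi5. Of the MRC libraries only MRC2 exceeded the MCi5 value, and MCi1 lay between the MRC values (log2 fold change −0.58 ± 0.31, edgeR adjusted p = 0.378). The remaining 8 genes of this group (Rsad2, Cmpk2, Isg20, Rtp4, Xaf1, Ifi27, Ifi35 and Ifi44) had log2 fold changes of −0.34 to 0.33. Parp9, Dtx3l and Parp14, of an ADP-ribosylation and ubiquitin pathway, were close to 0 (−0.09 to 0.14), and the dynamin-like GTPase gene Mx2 was at 0.30 ± 0.59. Parp9 and Dtx3l overlap on opposite strands between positions 35938470 and 35939151 of chromosome 16, and reads there could not be assigned to a strand.

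The rest of the pathway was described by lists. Of 21 interferon ligand genes, 0 had enough reads to be tested: the 10 libraries together held 37 reads, 9 in MRC and 28 in MCi, and no ligand exceeded 1.54 CPM in a library. Of 14 receptor and signalling genes tested, 0 passed in edgeR and 3 had an unadjusted p under 0.05 (median log2 fold change −0.10), where 16.7% of all genes had one. The 3 with the smallest p were Ifngr2, a chain of the interferon gamma receptor, at 1.33 ± 0.38 (edgeR adjusted p = 0.163), the kinase gene Jak2 at 0.72 ± 0.21 (edgeR adjusted p = 0.171) and the inhibitor gene Socs1 at −0.67 ± 0.26 (edgeR adjusted p = 0.251). DESeq2, which called 7.02% of all genes, called Ifngr2 and Jak2 (adjusted p of 0.0166 and 0.0336). Ifngr2 was at 58.4, 59.5, 88.4, 186 and 231 CPM in MRC1 to MRC5 and at 47.3 to 53.1 CPM in MCi, and without MRC4 and MRC5 its log2 fold change was 0.48 (edgeR adjusted p = 0.248).

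Of 17 genes of nucleic acid sensing upstream of interferon, 0 passed in edgeR and 2 had an unadjusted p under 0.05 (median 0.12, background 16.7%). Ticam1, which encodes the adaptor TRIF of Toll-like receptor signalling, had the smallest p, at 1.31 ± 0.35 on the log2 scale (edgeR adjusted p = 0.144, DESeq2 adjusted p = 0.0133), followed by Rnf135, a ubiquitin ligase gene of the RIG-I pathway, at −0.99 ± 0.41 and Samhd1, a dNTP hydrolase gene, at 0.84 ± 0.39 (edgeR adjusted p of 0.259 and 0.305). Without MRC4 and MRC5 the log2 fold changes were 0.68 for Ticam1, −0.52 for Rnf135 and 0.14 for Samhd1 (edgeR adjusted p of 0.362, 0.523 and 0.899). Of 48 other interferon-stimulated genes, 0 passed in edgeR and 10 had an unadjusted p under 0.05 (median −0.05, background 16.7%). Ddx60, a helicase gene, was at 9.26, 33.5, 49.9, 33.3 and 41.9 CPM in MRC1 to MRC5, and at 6.94, 11.2, 14.03, 10.3 and 8.55 CPM in MCi1 to MCi5. Every MRC library but MRC1 was above every MCi library. Its log2 fold change was 1.72 ± 0.39 (edgeR adjusted p = 0.0909), and over 25 alternatives its adjusted p ranged from 0.00145 (DESeq2) to 0.473 (libraries 1 to 3). It passed in 3 of them: DESeq2, libraries 4 and 5 alone, and the fit without MRC1, its outlying low library (adjusted p = 0.0248). Epsti1 and Pml, a gene of nuclear bodies, were at 2.43 ± 0.75 and 0.51 ± 0.16 (edgeR adjusted p of 0.186 and 0.192) and were called by DESeq2 (adjusted p of 0.0181 and 0.0372). Without MRC4 and MRC5 they were at 1.24 and 0.54 (edgeR adjusted p of 0.567 and 0.170).

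Libraries of the same population differed among themselves. Summed over the 35 genes, the level was 1565, 2524, 2577, 1757 and 1983 CPM in MRC1 to MRC5, and 1427, 2577, 2738, 2174 and 2066 CPM in MCi1 to MCi5. The sum was lowest in library 1 and highest in library 3 of each population. The log2 range from the lowest to the highest library had a median over members of 1.29 in MRC, close to the 1.31 of all genes, and of 1.35 in MCi, where it was 0.83 for all genes.

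**Figure D2:**
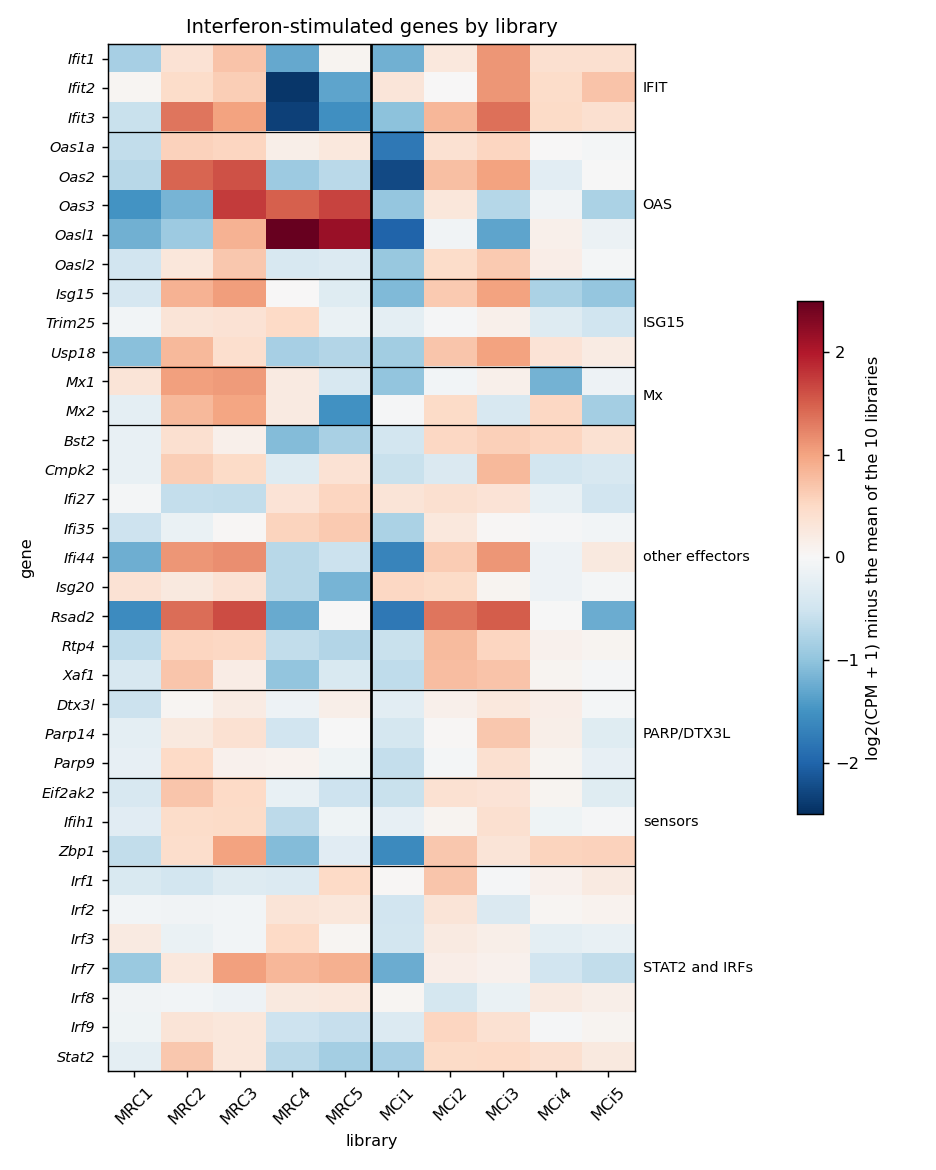
Log2(CPM + 1) of the 35 genes in the 5 MRC libraries (left) and the 5 MCi libraries (right), each row relative to its mean over the 10 libraries and grouped by role. MCi1 and MRC1 are blue in most rows, and MRC2, MRC3, MCi2 and MCi3 are red in most. MRC4 and MRC5 are blue for Ifit2 and Ifit3 and red for Oasl1 and Irf7.

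MCi1 was the lowest of the 5 MCi libraries in 26 of the 33 members tested, against 23.1% of all genes tested. Its log2 ratio to the median of the other 4 MCi libraries had a median of −0.80 over the members and of −0.01 over all genes. It was over 2-fold below that median for 14 members, where 7.97% of all genes were, and over 2-fold above it for 0, where 3.41% were. MCi3 was the highest of its population in 18 members (background 20.9%). In MRC the lowest library was MRC1 in 11 members (background 20.6%) and MRC4 in 10 (background 26.2%), and the highest was MRC3 in 14 (background 10.3%) and MRC2 in 11 (background 20.3%).

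The lowest ratios of MCi1 were in Oas2 and Rsad2. Oas2 was at 5.22, 26.5, 29.3, 4.38 and 5.33 CPM in MRC1 to MRC5, and at 1.12, 15.9, 19.3, 7.44 and 8.97 CPM in MCi1 to MCi5. Rsad2, which encodes viperin, an enzyme that makes a chain-terminating nucleotide, was at 1.19, 16.2, 19.1, 1.72 and 5.53 CPM in MRC1 to MRC5, and at 0.896, 15.4, 17.6, 5.51 and 1.75 CPM in MCi1 to MCi5. The MCi1 value was the lowest of all 10 libraries for both genes, and at this depth it rests on few reads.

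By role, the median log2 ratio of MCi1 was −2.09 for the OAS genes, −1.62 for the IFIT genes, −1.07 for the ISG15 system, −0.89 for the other effectors, −0.79 for the sensors, −0.54 for STAT2 and the regulatory factors, −0.53 for Parp9, Dtx3l and Parp14 and −0.06 for Mx2. Zbp1, Oas1a and Stat2 are members in which MCi1 stood well apart from the other MCi libraries, and are not typical. Zbp1 was at 14.1 CPM in MCi1 against 56.1 to 72.3 CPM in the other MCi libraries. Oas1a was at 9.41 against 33.8 to 51.1 CPM, and Stat2 at 52.9 against 112 to 135 CPM. Of the exon reads of Oas1a, 76.7% were unique to it, and the share was 75.3% for Usp18 and 76.3% for Parp9. In 7 members MCi1 was not the lowest: Ifit2, Irf1, Trim25, Mx2, Irf8, Ifi27 and Isg20, an exonuclease gene that was highest in MCi1 (36.5 CPM, against 22.9 to 35.7 CPM). Members whose promoter window held the motif had a median log2 ratio of −1.18 in MCi1 (10 genes tested). The median was −0.43 for members with a window and no match (15 genes), and the difference was not tested.

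Markers of other cell types are set beside these values. The epithelial markers summed to 22.4 CPM in MCi1 and 14.3 CPM in MCi3, against 744 to 1108 CPM in MCi2, MCi4 and MCi5. Leukocyte markers summed to 23.5 CPM in MCi1 and 8.95 to 17.0 CPM in the other MCi libraries, with Ptprc, which encodes CD45, at 2.02 CPM in MCi1. Macrophage and monocyte markers summed to 22.6 CPM in MCi1 and 23.4 to 45.4 CPM in the others, and enteric glia markers to 140, 161, 355, 107 and 110 CPM in MCi1 to MCi5. Mesothelial markers summed to 108 CPM in MCi1, 17.6 to 75.1 CPM in MCi2 and MCi3, and 685 and 723 CPM in MCi4 and MCi5. MCi1 had 4091438 exon reads, between the totals of MCi3 and MCi2. The part of these markers in the low values was not tested.

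**Figure D3:**
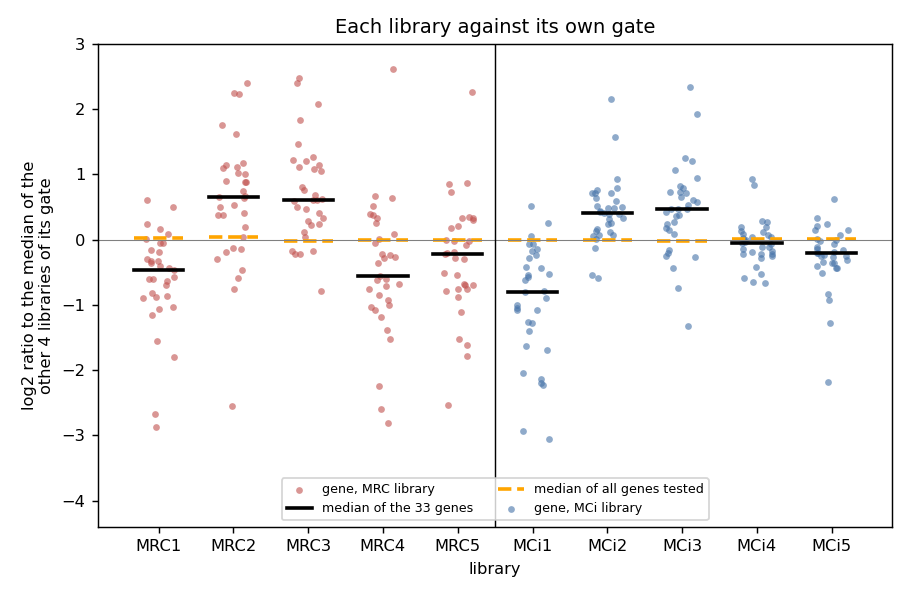
Log2 ratio of each library to the median of the other 4 libraries of its population, 1 point for each of the 33 genes tested (red, MRC; blue, MCi); black lines are their medians and dashed orange lines the medians of all genes tested. The black line is at −0.80 in MCi1 and above 0 in MRC2, MRC3, MCi2 and MCi3, while the orange lines stay near 0.

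Within libraries 1 to 3, library 1 was also low in MRC. Against the other MRC libraries, the median log2 ratio of the members was −0.46, 0.65, 0.61, −0.55 and −0.21 in MRC1 to MRC5. MRC1 is thus compared here with the highest MRC libraries, and MRC4 had a lower median than MRC1. Among libraries 1 to 3, which were of similar depth, MRC1 was the lowest in 27 of 33 members (background 36.9%) and MCi1 in 28 of 33 (background 32.5%). In 25 members library 1 was the lowest in both populations, against 13.9% of all genes. Libraries 1 to 3 were set apart with earlier results of these data known. The members vary together, so these counts are not independent observations. Relative to the mean of libraries 2 and 3 of the same population, the median log2 difference was −0.77 in MRC1 and −0.95 in MCi1, and −0.00 and 0.01 over all genes. Rsad2 was 11.6-fold lower in MRC1 and 13.3-fold lower in MCi1 than that mean, Ifi44 5.38-fold and 6.18-fold lower, Oas2 5.05-fold and 12.0-fold lower, and Isg15 2.63-fold and 3.96-fold lower. Irf8, Isg20, Irf2, Irf3 and Ifi27 were not below it in MRC1, and Irf8 and Isg20 were not below it in MCi1.

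Marker lists also differed between these MRC libraries. The epithelial sum was 11.2, 282 and 3384 CPM in MRC1 to MRC3, the enteric glia sum 4.51, 78.3 and 57.1 CPM, and the macrophage and monocyte sum 14.96, 20.1 and 15.6 CPM. Fibroblast markers summed to 91613, 134613 and 114263 CPM. The part of these markers in the low values of MRC1 was not tested.

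Other genes of the response, from a list that shares no gene with the 35, were also often lowest in library 1 among libraries 1 to 3. The list was chosen with earlier results of these data known and belongs to the same response, so it is not independent support. Some of its genes had many reads not unique to them, such as Ifit3b (76.5% unique) and Oas1g (70.8% unique). Of 48 tested, MRC1 was the lowest of MRC1 to MRC3 in 40 (background 36.9%) and MCi1 of MCi1 to MCi3 in 38 (background 32.5%). Library 1 was the lowest in both populations in 34 of them (background 13.9%). Over all MRC libraries, MRC1 was the lowest in 19 of these genes (background 20.6%) and MRC4 in 16 (background 26.2%). The labels do not say what libraries of the same number share, and MRC1 with MCi1 is 1 such pair.

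**Figure D4:**
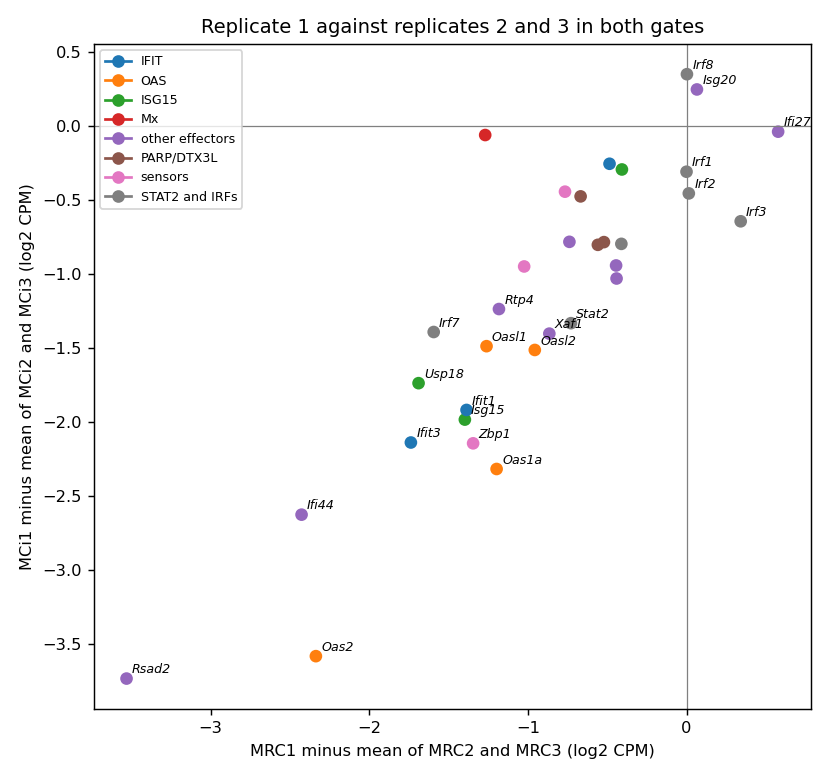
Log2 CPM of MRC1 minus the mean of MRC2 and MRC3 (horizontal) and of MCi1 minus the mean of MCi2 and MCi3 (vertical), 1 point for each of the 33 genes tested, coloured by role. Most points lie in the lower left, 28 of 33 below 0 on both axes (27.2% of all genes), with Rsad2, Oas2 and Ifi44 farthest out and Irf8 and Isg20 at the upper right.

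The libraries were also compared within sets of like depth. Within libraries 1 to 3 of both populations, edgeR called 0 of 34 members tested (background 0.801%), with a median log2 fold change of 0.09. Within libraries 4 and 5, a set chosen after the data were seen, edgeR called 11 of 35 members (31.4%, background 26.2%). Of these, 3 were higher in MRC (8.57%, background 15.5%) and 8 lower (22.9%, background 10.7%), with 2 libraries of each population in the test. MCi4 and MCi5 were the most alike pair within a population (chi-square per degree of freedom 7.47, against 19.6 for the next pair, MRC2 and MRC3). Since the set was chosen after the data were seen, p-values within it are not independent support for a difference.

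In the set of libraries 4 and 5, Oasl1 (log2 fold change 2.39 ± 0.28, edgeR adjusted p = 0.00274), Irf7 (1.34 ± 0.17, adjusted p = 0.00380) and Ifi35 (0.59 ± 0.16, adjusted p = 0.0439) were higher in MRC. Ifit2 (−2.58 ± 0.43, edgeR adjusted p = 0.00955), Ifit3 (−2.45 ± 0.29, adjusted p = 0.00287) and Bst2 (−1.48 ± 0.18, adjusted p = 0.00315) were lower in MRC, as were Stat2, Usp18, Zbp1, Rtp4 and Irf9 (−1.31 to −0.65). Within libraries 1 to 3 the same values were 0.93 ± 0.79 for Oasl1, 0.53 ± 0.61 for Irf7, −0.16 ± 0.30 for Ifit2, 0.10 ± 0.78 for Ifit3 and −0.16 ± 0.29 for Bst2 (edgeR adjusted p of 0.842 or more), and the difference between the sets was not tested.

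These MRC libraries are those rich in epithelial transcripts: the epithelial adhesion gene Epcam was at 0.237, 23.2, 107, 904 and 856 CPM in MRC1 to MRC5, and at 0, 69.0, 0.476, 58.8 and 49.4 CPM in MCi1 to MCi5. Fibroblast genes were lower there, with the collagen gene Col1a1 at 2594 and 2146 CPM in MRC4 and MRC5 and at 12772 to 17394 CPM in MRC1 to MRC3. Leukocyte markers summed to 67.9 and 102 CPM in MRC4 and MRC5, against 8.95 and 13.1 CPM in MCi4 and MCi5. Mesothelial markers summed to 4.85 and 2.37 CPM in MRC4 and MRC5, against 685 and 723 CPM in MCi4 and MCi5, and enteric glia markers to 5.63 and 4.94 CPM, against 107 and 110 CPM. The part of these other cell types in the differences within libraries 4 and 5 was not tested.

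**Figure D5:**
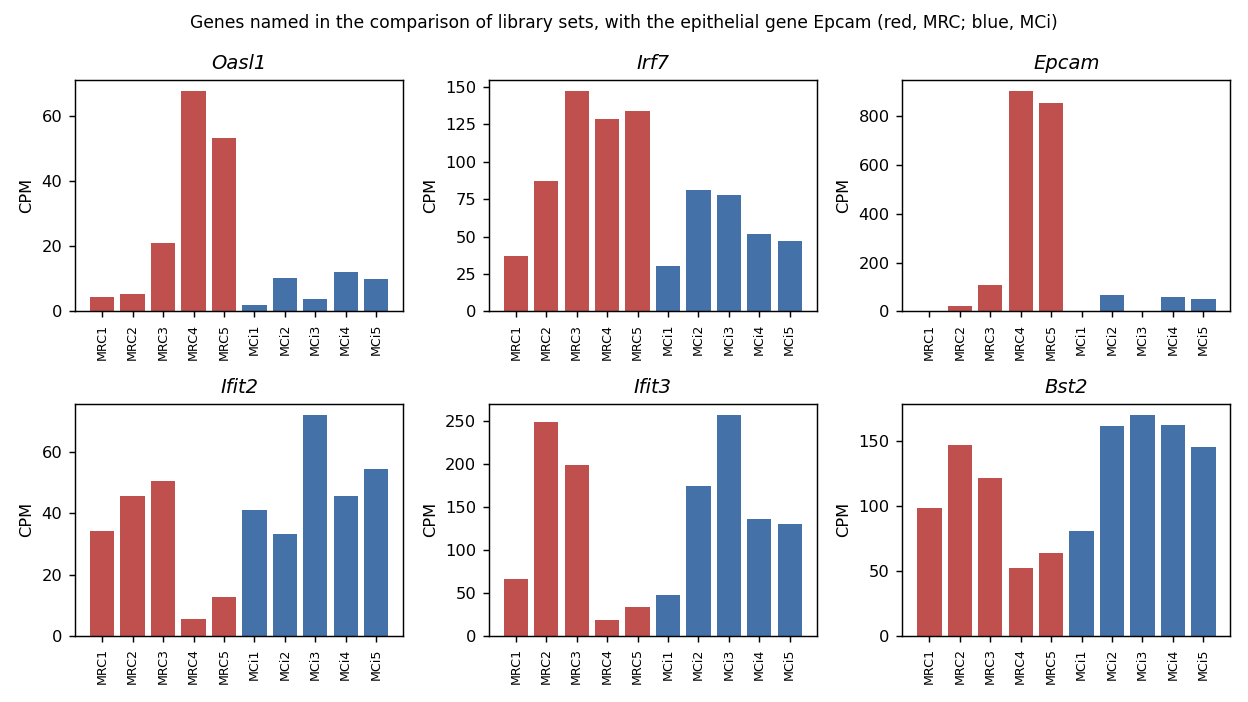
CPM by library of Oasl1, Irf7, Ifit2, Ifit3 and Bst2 with the epithelial gene Epcam (red, MRC; blue, MCi; linear axes from 0). Oasl1 and Epcam are highest in MRC4 and MRC5, where Ifit2, Ifit3 and Bst2 are lowest, and Irf7 is highest in MRC3.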

How the data were processed

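RNA was measured in 10 libraries, 5 MRC and 5 MCi, grouped by the MAdCAM1 label. Per the labels' protocols, total RNA was extracted with a micro column kit and cDNA was amplified with a low-input SMART-Seq kit, which does not mark strand. Coordinates are on GRCm38, per the submitters' processing notes. Which aligner was used is not given in the sources used here. Per the file headers, the authors deposited for each library counts of total exon reads per gene, which were used for tests, and RPKM values, used for levels per length and as an alternative. Total exon reads were 4355386, 4141949, 4761017, 7004048 and 6142562 in MRC1 to MRC5 and 4091438, 4255530, 3941032, 6603603 and 8738115 in MCi1 to MCi5. Reads were not collapsed by molecular identifiers, so floors cover counting error only.

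The 35 members, the lists and the split of libraries were chosen with earlier results of these data known. Genes were kept by filterByExpr (minimum count 10, minimum total 15), leaving 12127, and fitted with edgeR 4.0.16 (R 4.3.3, TMM factors, robust quasi-likelihood, MRC minus MCi). P values were adjusted by Benjamini-Hochberg over all genes tested, at 0.05. SE is the absolute log2 fold change over the square root of F. CPM is reads over the exon total scaled by the TMM factor, as mean ± SD of 5 libraries, and library ratios use log2 CPM with a prior count of 2. Values in every library are given for the 5 members of smallest p and the 5 with the largest deviation of 1 library, and for Isg15, Oas3 and Ddx60, which were chosen after their values were seen. From each other list the 3 genes of smallest p are named. Alternatives were DESeq2 1.42.0, other size factors, filters and read counts, limma 3.58.1 on log2(RPKM + 1) or log2(RPKM + 0.1), a replicate block, a threshold of 0.01 and sets of libraries. Libraries of a population differed by more than sampling noise (chi-square per degree of freedom 7.47 to 199). The fit was tested on simulated data. Results that name an item withheld for evaluation are not reported here.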

Additional observations from a re-analysis of the deposited data

Results flagged for a closer look

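In groups of 5, a library was marked where the gap to its nearest neighbour took more than 0.71 of the whole range on the log2 scale (Dixon's ratio). Of 84 groups tested, 10 were marked, where chance marks about 1 in 20 of independent groups. Besides members, the groups included pathway genes named for their small p, such as Jak2, Socs1, Samhd1 and Ddx60. The groups share libraries in which these genes vary together, so the 1 in 20 does not give the number to be marked here. No share over all genes is given, so neither the count nor its split over libraries is read as a result.

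MCi1 was the lowest library in 5 of the 10. In MCi, Stat2 was at 52.9 CPM in MCi1 and at 112 to 135 CPM in the others (ratio 0.803). Oas1a was at 9.41 CPM there, and at 33.8 to 51.1 CPM in the others (ratio 0.753). Bst2 was at 80.6 CPM, with 145 to 170 CPM in the others (ratio 0.786), and Zbp1 at 14.1 CPM, with 56.1 to 72.3 CPM in the others (ratio 0.844). The nucleotide hydrolase gene Samhd1 was at 23.7 CPM in MCi1 and at 44.6 to 52.9 CPM in the others (ratio 0.787).

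The other 5 were spread over 4 libraries. Irf1 was at 293 CPM in MRC5 and 152 to 166 CPM in the other MRC libraries (ratio 0.864), and Jak2 at 146 CPM in MRC5 and 75.4 to 90.3 CPM in the others (ratio 0.726). Ddx60 was at 9.26 CPM in MRC1 and 33.3 to 49.9 CPM in the other MRC libraries (ratio 0.758). Cmpk2, a mitochondrial nucleotide kinase gene next to Rsad2 on chromosome 12, was at 76.8 CPM in MCi3 and 29.3 to 33.5 CPM in the other MCi libraries (ratio 0.863). Socs1 was at 25.6 CPM in MCi2 and 15.01 to 17.1 CPM in the others (ratio 0.755).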

How the results depend on the processing

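The count of members called was 0 in every alternative except libraries 4 and 5 alone (11 members), which was added after the data were seen. The median log2 fold change of the members ranged from −0.16 (without MRC3) to 0.11 (without MRC1) when 1 library was left out. The sign of a member's fitted value differed from the value over all libraries for 0 to 10 members per alternative, none of them called. Upper-quartile factors moved the median of all genes by −0.10 and limma on RPKM by −0.22 (pseudocount 1) and −0.27 (pseudocount 0.1), so members are to be read relative to these shifts. The 53 calls over all genes became 851 with DESeq2, 244 and 159 with limma on log2(RPKM + 1) and log2(RPKM + 0.1), 149 with limma and no filter, 128 without MRC4 and MRC5, 95 in libraries 1 to 3, 3460 in libraries 4 and 5, 6 without library 1 of both populations (added after the data were seen), 12 at a threshold of 0.01, and 19 to 49 when 1 library was left out. The cause of these changes was not tested.

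Libraries with the same number in both populations had correlations of their deviations of 0.558, −0.254, 0.0624, 0.346 and 0.485. MRC1 and MCi1 correlated best with each other, as did MRC5 and MCi5, but libraries 2, 3 and 4 did not match by number. The numbers were therefore not taken to pair the samples. A fit with the replicate block called 49 genes and 0 members, with a member median of −0.05 and 4 members at an unadjusted p under 0.05 (Isg15, Oasl1, Usp18 and Irf7), and not every library correlated best with its own number. The depth limits Oas3, Mx1 and the interferon ligands, which lay near the floor.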

Other observations

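Outside the interferon response, the genes in which MCi1 lay furthest above the median of the other MCi libraries, among 9220 genes averaging 10 CPM or more in MCi, included Has1, Il6, Arntl and Npas2. Has1, which encodes a hyaluronan synthase, was at 141 CPM in MCi1 and 5.15 to 89.2 CPM in the other MCi libraries. Il6, the interleukin gene, was at 45.9 CPM in MCi1, below the 53.3 CPM of MCi2 and above the other MCi libraries. The circadian activator gene Arntl was at 1.42, 48.2, 49.3, 21.1 and 8.49 CPM in MRC1 to MRC5, and at 52.9, 29.3, 52.6, 2.48 and 2.89 CPM in MCi1 to MCi5. The related gene Npas2 was at 0.237 CPM in MRC1 and 33.4 CPM in MCi1, so these libraries, both low in interferon-stimulated genes, were at opposite ends of their populations for both genes. The other genes at that end were Gm20481, Nme2, Spock2, Scara5, Fosb and Col8a2, with Gm20481 ranging from 0 to 228 CPM in the other MCi libraries.

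The 10 genes furthest below the other MCi libraries in MCi1 were Dmbt1, Reg3b, Fabp6, Reg3g, Slc5a1, Epcam, Lypd8, Myo1a, Pigr and Cdh17. In each of them MCi1 and MCi3 were the lowest libraries of MCi. Reg3b, an antimicrobial lectin gene, was at 1.12 CPM in MCi1 and 13.3 CPM in MCi3, and at 421 to 4079 CPM in the other MCi libraries.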
